A study of Mus musculus with 16 samples.

Results

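The odorant receptor genes of mouse chromosome 10 were followed across sorted cells of the olfactory mucosa. Members were the probe sets of a mouse Clariom S array that the platform annotation places on chromosome 10 and names Olfr plus a number, without the suffix of a pseudogene. There were 65 of them among 1080 receptors that fit the same symbol rule on any chromosome and 19572 tested probe sets in all. The current gene table placed 65 of the 65 on chromosome 10, with 9 genes in a proximal block (GRCm38.p6, chr10:78611669-79035802) and 56 in a distal block (chr10:128989914-130211128).

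All animals carried S100a5-tauGFP, the controls included, and came from 24 mice of both sexes aged 7 to 12 weeks. In the citrus groups they breathed filtered air at 3.1 L/min alone in a chamber for 40 h and, from 26 h on, received citrus accord, a perfumery blend, at 100% in pulses of 10 s every 20 min. In the vehicle groups the pulses were of filtered air. Cells of 3 mice were pooled and sorted for green fluorescence, which gave 4 arrays each of citrus GFP+, citrus GFP-, vehicle GFP+ and vehicle GFP- cells. The gate is set by a reporter of the S100a5 gene, so GFP- cells can be neurons with little reporter or other cells, and every array mixes the cells of 3 mice.

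Odorant receptors are G protein-coupled receptors of olfactory sensory neurons (OSNs). A mature OSN expresses 1 receptor gene from 1 allele, so that the mRNA level of a receptor in sorted tissue follows both the number of neurons that chose it and its mRNA per neuron. Receptor genes lie in clusters along the chromosomes, arose by local duplication, and are grouped into numbered mouse odorant receptor (MOR) families by sequence. S100a5 is a calcium-binding protein whose expression in OSNs depends on neuronal activity. Receptors at higher levels in GFP+ cells are therefore read in this assay as receptors of more active neurons. In pooled cells, fewer neurons of a receptor and less mRNA in each of them cannot be told apart.

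S100a5 itself was higher in GFP+ than in GFP- cells by 1.88 ± 0.13 log2 units (SE) in citrus and 1.91 ± 0.13 in vehicle, and Omp, a marker of mature OSNs, had differences of 0.18 and 0.27 that did not pass. Omp lay near the top of the scale, with group means of 19.1 to 19.4 where the highest value on an array was 19.8 to 19.9. Its differences may be limited by that. Background was set on each array at the 95th percentile of 5222 negative-control probe sets, between 8.75 and 9.71 in log2 signal. Between 15 and 38 of the 65 receptors exceeded it on a given array. Across the 16 arrays 8 receptors were always above it (Olfr771, Olfr776, Olfr784, Olfr788, Olfr791, Olfr806, Olfr820 and Olfr821), 37 were above it on some arrays and 20 on none. Mean signals of the members over all arrays ranged from 3.62 to 13.1. Signals of different probe sets are not on one scale of mRNA amount and are compared here only within a receptor.

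**Figure D1:**
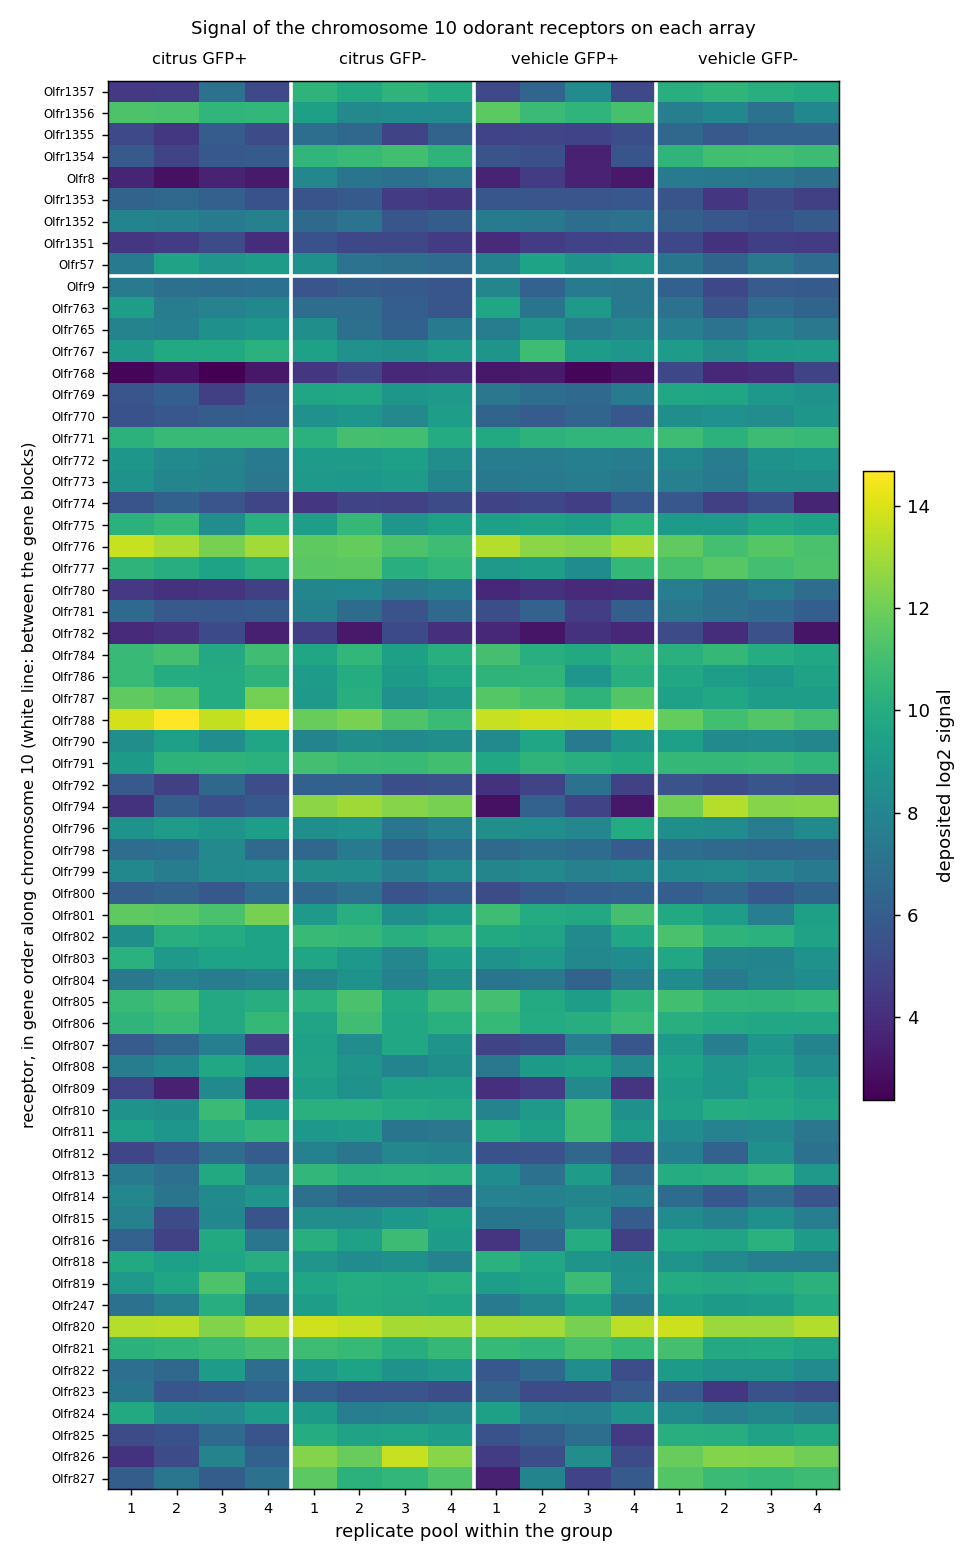
Deposited log2 signal (colour) of the 65 receptors (rows, in gene order) on the 16 arrays (columns, by group and pool). Rows such as Olfr794 and Olfr826 are dark in both GFP+ groups and bright in both GFP- groups, Olfr788 is brighter in GFP+ cells, and Olfr820 is bright in all 4 groups.

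The first comparison asked which receptors differ between reporter-positive and reporter-negative cells. In citrus, 13 of the 65 were higher and 20 lower in GFP+ cells at an adjusted p under 0.05, and 32 did not pass. In vehicle 12 were higher and 20 lower, and 33 did not pass. Of all tested probe sets 18.2% were called in citrus (7.44% higher, 10.8% lower) and 19.0% in vehicle (9.05% higher, 9.97% lower). Of the chromosome 10 receptors 50.8% were called in citrus (20.0% higher, 30.8% lower) and 49.2% in vehicle (18.5% higher, 30.8% lower). The 1015 receptors of other chromosomes had 63.0% called in citrus (44.0% higher, 18.9% lower) and 60.0% in vehicle (40.2% higher, 19.8% lower). The median difference of the 65 was −0.13 log2 units in citrus and −0.36 in vehicle, beside 0.80 and 0.63 for the other receptors and 0.13 and 0.11 for all probe sets. Chromosome 10 was not alone in this: in vehicle 34.4% of 61 receptors on chromosome 19 were lower (median −0.17), as were 33.3% of 27 on chromosome 6 (−0.02) and 28.2% of 78 on chromosome 11 (−0.10). The difference between chromosome 10 and the others was described and not tested.

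The counts took in dim receptors and depended on the filter and on the scale of the arrays. Of the 33 calls in citrus 8 were on receptors above background on no array, and of the 32 in vehicle 9. With only probe sets above background on average tested, which keeps 19 of the 65, 5 were higher and 1 lower in either stimulus. The median was then 0.28 in citrus and 0.27 in vehicle. That filter takes the mean over all 16 arrays, so it drops receptors bright in GFP- cells alone, such as Olfr794, Olfr826 and Olfr1354. Its counts and medians therefore follow in part from the filter. With each array centred on the median of all tested probe sets, which adds 0.33 to every difference in citrus and 0.28 in vehicle, 23 receptors were higher and 19 lower in citrus, and 16 and 20 in vehicle. Centred on the receptor median, which takes off 0.76 in citrus and 0.47 in vehicle, the counts were 8 and 36 in citrus and 10 and 28 in vehicle. Centred on markers of mature OSNs (shifts of −0.38 and −0.33), they were 10 and 27 in either stimulus. Without citrus replicate 4 the citrus count fell to 8 higher and 14 lower, and without vehicle replicate 2 the vehicle count fell to 9 and 16.

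Calls were largely shared by the stimuli, which use separate mice and no common array. Both tests take 1 estimate of spread per probe set from all 16 arrays, so the calls are not fully independent. The matching share of shared calls over all probe sets is not given here. The 12 receptors higher in vehicle were also higher in citrus, which is 92.3% of those higher in citrus and 100% of those higher in vehicle. Of those lower, 16 were shared, or 80% of either list, and 0 had opposite calls. Olfr1353 was higher in citrus alone (1.01 ± 0.32, adjusted p = 0.0369). It had 0.73 ± 0.32 in vehicle (0.131, and 0.0361 with the pool as a block), and its citrus call was lost on scaling to the receptor median (0.4) or to mature OSN markers (0.12), in a fit of the citrus arrays alone (0.0762), and without citrus replicate 1, 3 or 4 or vehicle replicate 3 or 4 (up to 0.184). Lower in citrus alone were Olfr247, Olfr772, Olfr791 and Olfr815, and lower in vehicle alone were Olfr777, Olfr804, Olfr816 and Olfr1355. With the pool as a block Olfr777 (adjusted p = 0.0498) and Olfr816 (0.0194) also passed in citrus, Olfr772 (0.0439) also passed in vehicle, and Olfr1355 no longer passed in vehicle (0.0593). Each of these 9 differed in the same direction in the other stimulus, and the tests of the difference between stimuli given further on called none of the 65. Over the 65 receptors the differences of citrus and vehicle correlated at r = 0.97 (rho = 0.98), given as a description, and 61 had one sign in both.

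**Figure D2:**
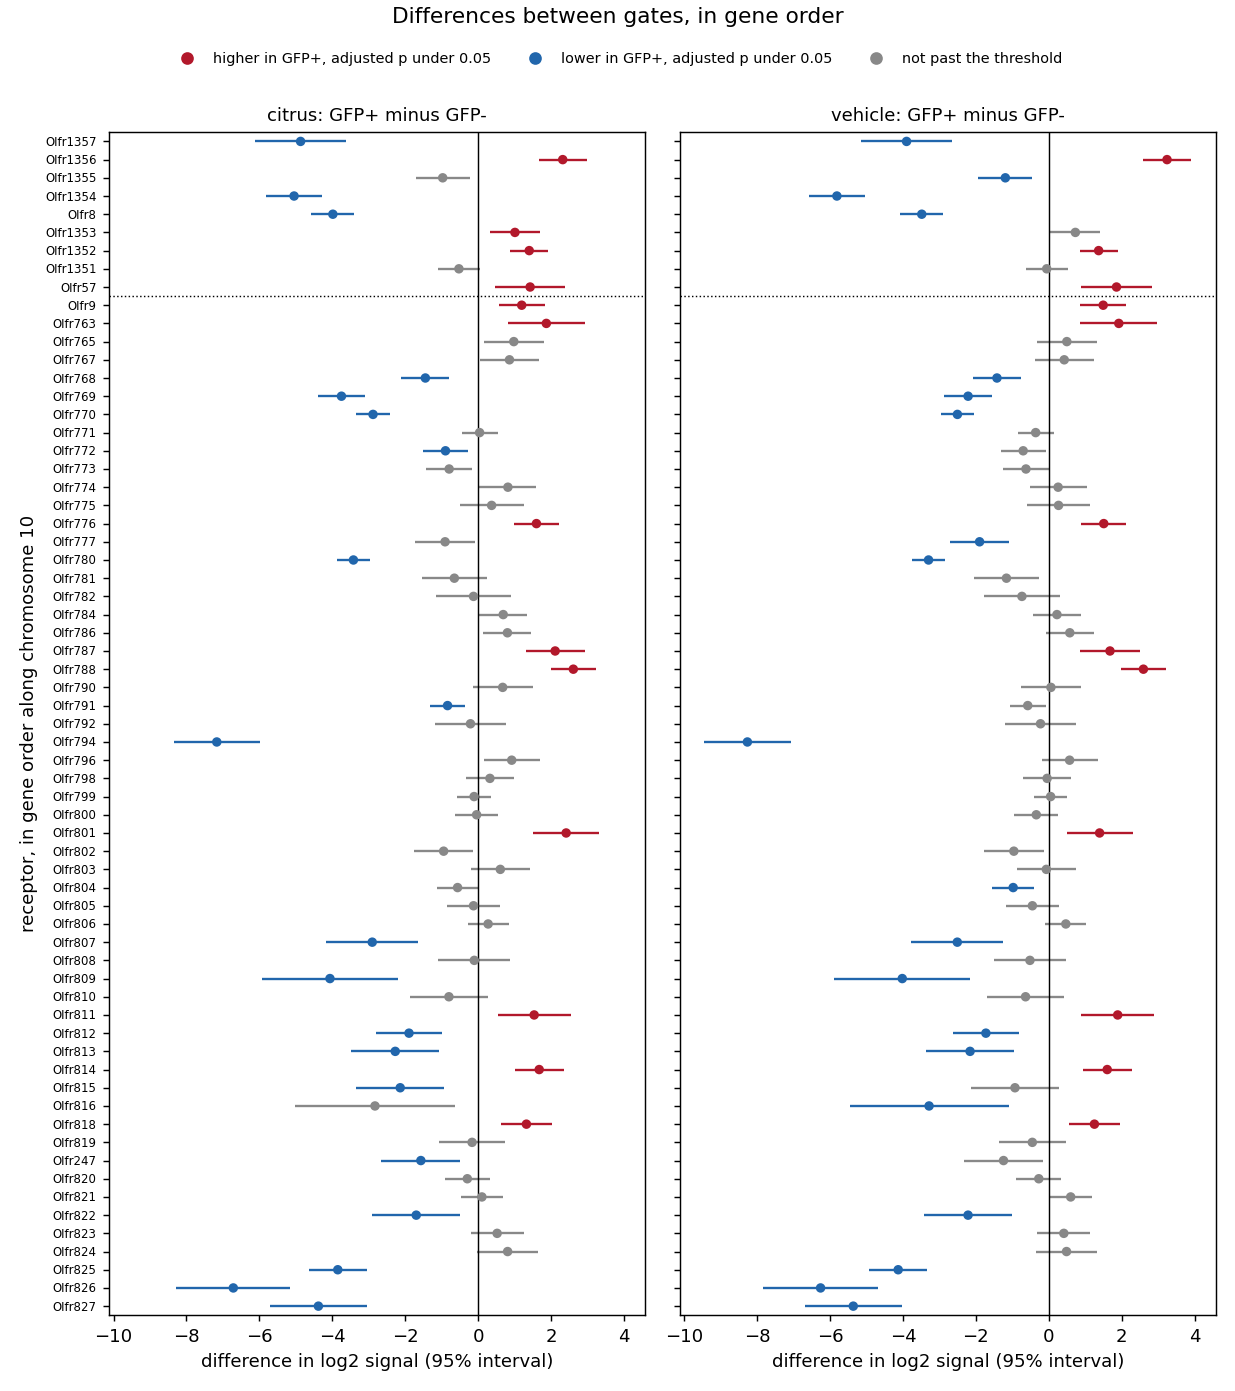
Difference in log2 signal between GFP+ and GFP- cells (point, with its 95% interval) for each of the 65 receptors in gene order, in citrus (left) and in vehicle (right). Red marks the 13 and 12 receptors higher in GFP+ cells, blue the 20 and 20 lower, and grey those not past the threshold. Olfr794 lies farthest to the left in both panels, with GFP+ signals under background.

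Several receptors lower in GFP+ cells were under background on all GFP+ arrays and above it on all GFP- arrays, so the size of their difference was not measured beyond a bound. Olfr794 (chr10:129570657-129571619, family MOR114) had a log2 signal of 4.21, 6.02, 5.40 and 5.80 in citrus GFP+ cells, against 12.53, 12.93, 12.46 and 12.18 in citrus GFP- cells. In vehicle it had 2.95, 6.25, 4.91 and 3.17 in GFP+ cells, against 12.05, 13.34, 12.46 and 12.50 in GFP- cells. All 8 GFP+ arrays lay under background and all 8 GFP- arrays above it, with no overlap. The differences were −7.17 ± 0.56 in citrus (adjusted p = 3.85e-08) and −8.27 ± 0.56 in vehicle (8.19e-09). Since the GFP+ signal is only a bound, Olfr794 was at least 11.8-fold lower in citrus and at least 9.45-fold lower in vehicle on the deposited scale. All such bounds here are ratios of deposited signals, which their transformation may widen, and not of mRNA amounts. They set the mean of the brighter group against the mean background of the arrays of the dimmer one. A bound is given only where the dimmer group was under background on all of its arrays.

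Olfr826 (chr10:130179937-130180878, MOR210) had 4.20, 5.20, 7.90 and 6.23 in citrus GFP+ cells and 12.42, 11.81, 13.66 and 12.49 in citrus GFP- cells. Its vehicle values were 4.54, 5.34, 8.43 and 5.25 in GFP+ cells and 11.81, 12.40, 12.36 and 12.02 in GFP- cells. The groups did not overlap, and in both stimuli the third GFP+ array was the highest of its group. Olfr826 was lower by −6.71 ± 0.74 in citrus (adjusted p = 2.41e-06, at least 12.4-fold) and −6.26 ± 0.74 in vehicle (6.58e-06, at least 6.96-fold). Its neighbours in the same family, Olfr825 and Olfr827, were also under background on all GFP+ arrays and above it on all GFP- arrays. Olfr825 was lower by −3.85 ± 0.38 in citrus and −4.13 ± 0.38 in vehicle, with bounds of at least 1.54-fold and 1.43-fold. Olfr827 was lower by −4.38 ± 0.63 and −5.36 ± 0.63, at least 3.93-fold and 2.95-fold. Adjusted p for both lay between 3.53e-07 and 5.24e-05.

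In the proximal block Olfr1354 (chr10:78916842-78917936, MOR139) had 5.83, 4.92, 5.77 and 5.86 in citrus GFP+ cells, against 10.48, 10.73, 10.98 and 10.38 in citrus GFP- cells. The vehicle arrays gave 5.55, 5.41, 3.50 and 5.57 in GFP+ cells, against 10.43, 10.98, 11.02 and 10.84 in GFP- cells. It was lower by −5.05 ± 0.36 in citrus (adjusted p = 1.35e-08, at least 3.20-fold) and −5.81 ± 0.36 in vehicle (3.12e-09, at least 2.77-fold). Olfr8, the adjacent member of its family, had means of 3.35 ± 0.33 (SD, n = 4) in citrus GFP+ and 7.34 ± 0.53 in citrus GFP- cells, and 3.74 ± 0.55 in vehicle GFP+ and 7.23 ± 0.22 in vehicle GFP- cells. It passed in both stimuli (−3.98 ± 0.28 and −3.48 ± 0.28), but all 16 arrays were under background, so no fold is given. The first 50 coding bases that RefSeq gives for this pair (GRCm38.p6, plus strand, chr10:78916842-78916891 and chr10:78955207-78955256) are shown because they are identical, and the 250 bases before them align at 99.6%:
Olfr1354: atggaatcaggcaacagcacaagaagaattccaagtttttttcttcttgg
Olfr8: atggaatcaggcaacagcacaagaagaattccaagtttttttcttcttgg
Probes for copies this alike can take up each other's RNA, so their separate values are uncertain.

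Olfr1357 (MOR128), the first gene of the proximal block, had 4.43, 4.58, 6.98 and 5.09 in citrus GFP+ cells and 10.37, 9.86, 10.37 and 9.96 in citrus GFP- cells. The values were 5.09, 6.42, 8.34 and 5.13 in vehicle GFP+ cells and 10.16, 10.43, 10.10 and 9.90 in vehicle GFP- cells. It was lower by −4.87 ± 0.59 in citrus (adjusted p = 6.97e-06, at least 2.26-fold) and −3.90 ± 0.59 in vehicle (9.95e-05, at least 1.74-fold). Olfr809 (MOR108) had 4.92, 3.54, 8.27 and 3.79 in citrus GFP+ cells and 9.29, 8.71, 9.39 and 9.38 in citrus GFP- cells. In vehicle it had 4.04, 4.51, 8.16 and 4.26 in GFP+ cells and 9.28, 8.87, 9.64 and 9.26 in GFP- cells. The third GFP+ array stood near the GFP- arrays in both stimuli. The difference was −4.06 ± 0.88 in citrus (adjusted p = 0.00266, at least 1.17-fold) and −4.02 ± 0.88 in vehicle (0.00332), where 2 of 4 GFP- arrays were above background. Without replicate 3 of the stimulus it was −5.04 in citrus and −4.87 in vehicle.

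Olfr780 fell by 3.42 ± 0.22 in citrus and by 3.30 ± 0.22 in vehicle, with adjusted p of 3e-09 and 5.29e-09. All of its values lay under background, between 3.80 and 4.74 in the 8 GFP+ arrays and between 6.79 and 8.11 in the 8 GFP- arrays. The signal of a receptor under background cannot be told from unspecific binding by its level alone, although the arrays of the gates did not overlap. Of the members called in either direction, 26 of 33 in citrus and 25 of 32 in vehicle had no overlap between gates. Over all members, called or not, the gates did not overlap for 28 in citrus and 27 in vehicle. All 12 higher and all 20 lower receptors differed in one direction in all 4 vehicle pools. In citrus this held for 11 of 13 and 18 of 20, the exceptions being Olfr57, Olfr811, Olfr247 and Olfr822. These receptors were called on the same arrays, so the agreement of arrays and pools follows in part from the calls. Shares over all probe sets are not given here, and the counts are a description.

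**Figure D3:**
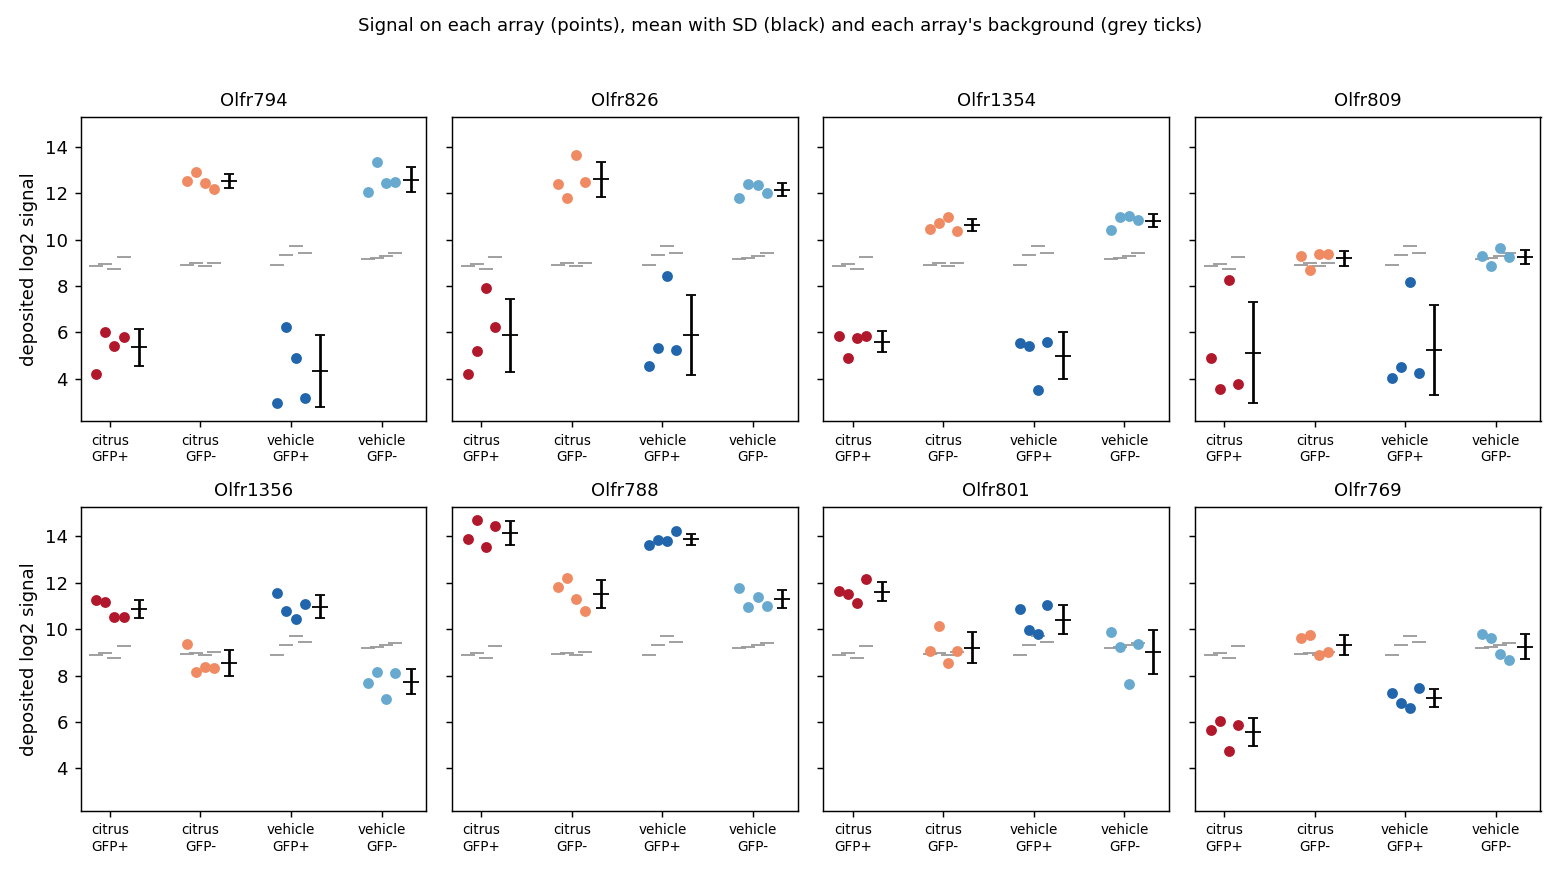
Log2 signal on each array (points), with the mean and SD of 4 arrays (black) and the background of each array (grey ticks), for 8 receptors in citrus GFP+, citrus GFP-, vehicle GFP+ and vehicle GFP- cells. Olfr794, Olfr826 and Olfr1354 are under background in every GFP+ array and above it in every GFP- array. Olfr1356, Olfr788 and Olfr801 are higher in GFP+ cells. Olfr769 is lower in citrus GFP+ than in vehicle GFP+ cells on every array, with all of these arrays under background.

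Among receptors higher in GFP+ cells, Olfr1356 (chr10:78846951-78847913, MOR142) had 11.26, 11.17, 10.50 and 10.53 in citrus GFP+ cells, against 9.35, 8.16, 8.35 and 8.32 in citrus GFP- cells. The vehicle arrays gave 11.57, 10.76, 10.45 and 11.10 in GFP+ cells, against 7.66, 8.13, 6.98 and 8.13 in GFP- cells. All GFP+ arrays were above background, while 1 citrus and 0 vehicle GFP- arrays were. The difference was 2.32 ± 0.31 in citrus (adjusted p = 2.46e-05) and 3.24 ± 0.31 in vehicle (6.11e-07), at least 3.23-fold in vehicle. It lies between Olfr1357 and Olfr1354, both lower in GFP+ cells, with only Olfr1355 between it and Olfr1354.

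Olfr788 (chr10:129472694-129473629, MOR111) was above background on all arrays and thus measured on both sides. It had 13.88, 14.69, 13.55 and 14.43 in citrus GFP+ cells, against 11.81, 12.20, 11.31 and 10.78 in citrus GFP- cells. Vehicle values were 13.64, 13.86, 13.79 and 14.21 in GFP+ cells, against 11.79, 10.96, 11.38 and 11.00 in GFP- cells. It was higher by 2.61 ± 0.29 in citrus (adjusted p = 3e-06) and 2.60 ± 0.29 in vehicle (3.95e-06), in all 4 pools of both. Its neighbour Olfr787 and the more distant Olfr776, of the same family, were higher as well. Olfr787 had 2.11 ± 0.39 in citrus and 1.68 ± 0.39 in vehicle (adjusted p = 0.00055 and 0.00466). Olfr776, above background on all arrays, had 1.60 ± 0.29 and 1.51 ± 0.29 (0.000515 and 0.00106).

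Olfr801 (chr10:129669561-129670517, MOR110) had 11.66, 11.53, 11.14 and 12.15 in citrus GFP+ cells, against 9.06, 10.15, 8.54 and 9.07 in citrus GFP- cells. In vehicle it had 10.85, 9.96, 9.79 and 11.06 in GFP+ cells, against 9.87, 9.22, 7.64 and 9.36 in GFP- cells. The groups overlapped in vehicle and not in citrus. The difference was 2.42 ± 0.43 in citrus (adjusted p = 0.000427) and 1.39 ± 0.43 in vehicle (0.0296). The vehicle call was lost in 6 alternatives, among them without vehicle replicate 2 (0.0541), 3 (0.0545) or 4 (0.113).

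Olfr763, Olfr811, Olfr57 and Olfr814, also higher, were above background on some or none of the GFP+ arrays. Olfr763 (MOR269) had means of 8.20 ± 0.71 in citrus GFP+ and 6.33 ± 0.56 in citrus GFP- cells (difference 1.87 ± 0.50, adjusted p = 0.0127, but 0.0835 without citrus replicate 4). In vehicle its means were 8.31 ± 1.22 in GFP+ and 6.39 ± 0.63 in GFP- cells (1.92 ± 0.50, 0.0111, but 0.0534 without vehicle replicate 3). Olfr811 (MOR110) had 1.54 ± 0.48 in citrus (adjusted p = 0.0307), where 2 of 4 pools were near or below 0 (0.40 and −0.33) and the call was lost with the pool as a block (0.051) and without citrus replicate 3 (0.211) or 4 (0.26). In vehicle Olfr811 had 1.89 ± 0.48 (0.00894, at least 1.44-fold). Olfr57 (MOR139) had 1.43 ± 0.46 in citrus (0.0369), lost with the pool as a block (0.0924) and lower in 1 of 4 pools. In vehicle Olfr57 had 1.86 ± 0.46 (0.00773), lost without vehicle replicate 2 (0.09) or 4 (0.0624). Olfr814 was under background on all 16 arrays, with 1.68 ± 0.32 in citrus (0.000826) and 1.60 ± 0.32 in vehicle (0.00145), and no fold is given for it.

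Olfr820 (MOR116), above background on all arrays, did not pass in either stimulus. It had 13.30, 13.41, 12.38 and 13.16 in citrus GFP+ cells and 13.82, 13.59, 13.04 and 12.98 in citrus GFP- cells, a difference of −0.30 (95% interval −0.91 to 0.32). Vehicle values were 13.01, 12.98, 12.18 and 13.44 in GFP+ cells and 13.74, 12.82, 12.86 and 13.28 in GFP- cells, a difference of −0.27 (−0.89 to 0.35). Olfr771 (0.04 in citrus, −0.36 in vehicle) and Olfr821 (0.10 and 0.60), also above background on all arrays, did not pass. Their intervals were −0.45 to 0.53 and −0.85 to 0.13 for Olfr771, and −0.48 to 0.69 and 0.02 to 1.19 for Olfr821. Of the other receptors above background on all arrays, Olfr788 and Olfr776 were higher in both stimuli, Olfr784 and Olfr806 did not pass, and Olfr791 was lower in citrus (−0.84 ± 0.23, adjusted p = 0.0163, lost among others without citrus replicate 1 or 4).

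A MOR family number was given for 64 of the 65 receptors, in 16 families. In the largest, MOR114 with 13 genes, 0 were higher and 7 lower in citrus, and 0 and 6 in vehicle, with medians of −0.89 and −1.16. Differences in MOR114 ran from 0.04 to −7.17 in citrus and from 0.05 to −8.27 in vehicle, so family members were not alike in size. With highest values this small, no gene of MOR114 was higher in GFP+ cells at an unadjusted p under 0.05 by limma, which adds nothing to the calls. In MOR111, with 8 genes, 3 were higher and 0 lower in both stimuli (median 0.81 and 0.42). MOR110, with 9 genes, held both kinds, with 3 higher (Olfr801, Olfr811 and Olfr818) and 1 lower (Olfr812) in citrus, and 3 higher and 2 lower (Olfr812 and Olfr804) in vehicle. Olfr811 and Olfr812 are neighbours, and Olfr812 was lower by −1.89 ± 0.43 in citrus and −1.72 ± 0.43 in vehicle.

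MOR139, all in the proximal block, held 3 higher and 2 lower of 7 genes in citrus and 2 and 3 in vehicle. Olfr1355, one of the lower in vehicle (−1.19 ± 0.35, adjusted p = 0.0241), also lost its call when any 1 vehicle replicate was left out. In MOR210, the last 5 genes of the distal block, Olfr825, Olfr826 and Olfr827 were lower in both stimuli, while Olfr823 and Olfr824 did not pass (0.52 and 0.81 in citrus, 0.41 and 0.49 in vehicle). Olfr824 passed in citrus with the pool as a block (0.0289). In MOR113, 1 of 5 was higher and 2 lower in either stimulus, in MOR108 0 of 4 was higher and 2 lower, and in MOR269 2 of 3 were higher and 0 lower.

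**Figure D4:**
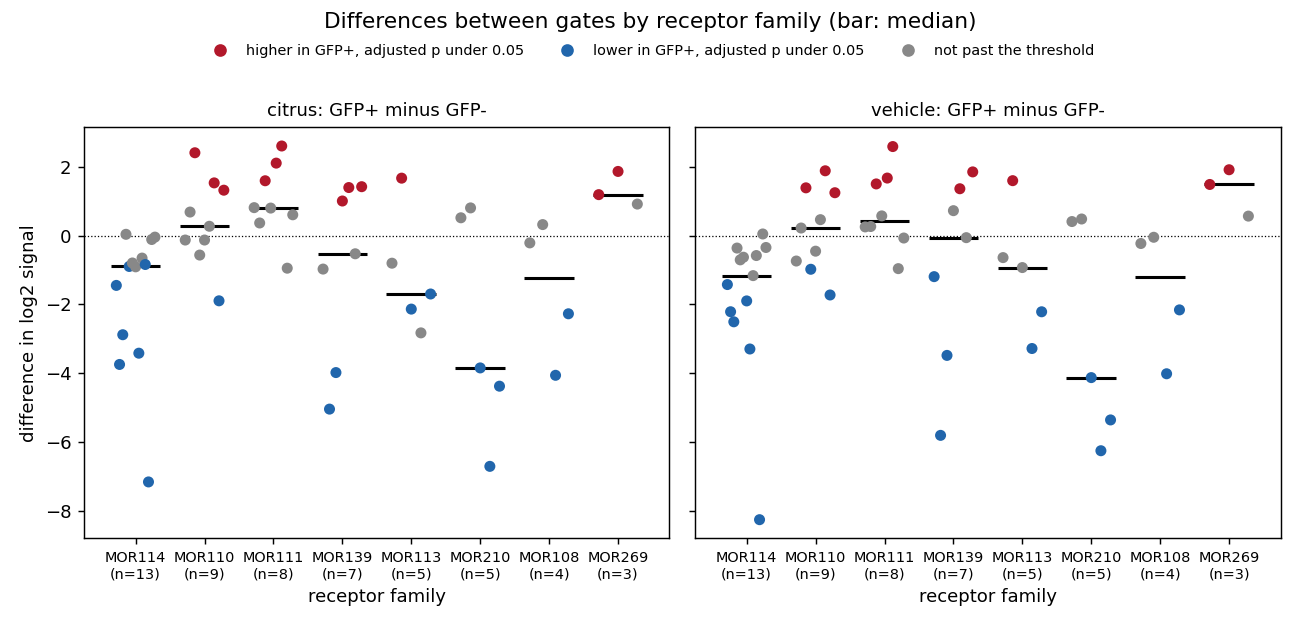
Difference in log2 signal between GFP+ and GFP- cells for members of the 8 families with 3 or more genes (points, in gene order within a family), in citrus (left) and in vehicle (right). Bars are family medians and colours mark calls as in the plot by gene order. MOR114, MOR210 and MOR108 hold lower and uncalled genes, MOR111 and MOR269 higher and uncalled ones, and MOR110, MOR139 and MOR113 both.

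Neighbours on the chromosome were compared by the absolute gap between their gate differences, as a description. Over 63 adjacent pairs the median gap was 1.61 log2 units in citrus and 1.42 in vehicle, beside 1.85 and 1.82 over all 2080 pairs. The 31 adjacent pairs within a family had a median gap of 1.31 and 0.96, and the 32 adjacent pairs from different families 2.08 and 1.92. The 163 pairs within a family that are not adjacent had 1.73 and 1.54. Pairs share genes, so they are not independent.

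Besides Olfr1354 and Olfr8, other pairs with nearly the same coding start were found among the 52 members with a RefSeq sequence window. Olfr9 and Olfr763, which open the distal block, share all of the first 50 coding bases (plus strand, chr10:128989914-128989963 and chr10:129011287-129011336) and were both higher in GFP+ cells:
Olfr9: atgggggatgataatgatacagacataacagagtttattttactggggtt
Olfr763: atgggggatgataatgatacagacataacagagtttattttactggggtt
Olfr9 was higher by 1.20 ± 0.30 in citrus (adjusted p = 0.00843, but 0.0664 without citrus replicate 1) and 1.49 ± 0.30 in vehicle (0.00163), always under background, beside 1.87 and 1.92 for Olfr763. Olfr825 and Olfr826 (minus strand, chr10:130163275-130163324 and chr10:130180829-130180878) share 49 of these 50 bases, with the differing base in capitals:
Olfr825: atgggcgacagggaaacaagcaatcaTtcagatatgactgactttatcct
Olfr826: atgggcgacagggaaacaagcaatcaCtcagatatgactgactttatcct
Both were lower in both stimuli. Olfr765 and Olfr767 share 49 of 50 bases (minus strand, chr10:129047012-129047061 and chr10:129079912-129079961):
Olfr765: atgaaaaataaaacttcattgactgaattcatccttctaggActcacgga
Olfr767: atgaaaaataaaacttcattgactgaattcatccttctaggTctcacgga
Neither passed, with 0.98 and 0.86 in citrus and 0.50 and 0.42 in vehicle. Likeness did not go with one sign throughout. Of 11 pairs that share at least 45 of the 50 bases, these 4 included, 8 had one sign in citrus, 8 in vehicle and 7 in each of the stimuli. Olfr792 and Olfr798, with 48 shared bases, had −0.21 and 0.32 in citrus, and the neighbours Olfr805 and Olfr806, with 47, had −0.13 and 0.28 in citrus and −0.45 and 0.47 in vehicle, none past the threshold. Cross-hybridisation of copies was not tested.

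RefSeq windows of these genes were searched on both strands for TAATTA, a core bound by Lhx2 and other homeodomain factors that act at receptor genes, for the looser TAATNA, which contains it, and for CCCNNGGG, a core of sites of Olf/Ebf factors. TAATTA occurred in 10 of the 52 windows (19.2%), in 18.6% of 944 receptor windows and in 5.29% of 32851 windows of all genes. TAATNA occurred in 73.1%, 65.9% and 26.5%. CCCNNGGG occurred in 1 of the 52 (1.92%), in 3.07% of receptor windows and 13.7% of all. In 48 of the 52 the annotated start is the start codon, so those windows are not promoters. Olfr1357, lower in GFP+ cells, is 1 of 4 with another annotated start and the only member with CCCNNGGG. The 250 bases before its start (minus strand, chr10:78618075-78618324) are shown with TAATTA (first base at −90 from the start) and CCCNNGGG (at −47) in capitals:
Olfr1357: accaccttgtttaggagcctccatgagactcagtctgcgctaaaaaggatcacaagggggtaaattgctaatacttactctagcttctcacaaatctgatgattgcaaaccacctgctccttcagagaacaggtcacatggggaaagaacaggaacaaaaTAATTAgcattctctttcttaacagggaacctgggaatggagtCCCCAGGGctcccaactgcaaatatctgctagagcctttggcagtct
A match is a run of letters and not a shown binding site.

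The second comparison asked whether citrus changed receptor levels within GFP+ cells. By limma 0 of the 65 passed, beside 0.0204% of all probe sets, and 4 had an unadjusted p under 0.05 (3 higher, 1 lower). That is 6.15% of the members, beside 6.80% of the other receptors and 4.06% of all probe sets, so the receptors described next were the first by p and not a result of the test. The median difference, citrus minus vehicle, was 0.26, beside 0.17 for the other receptors and 0.01 for all probe sets. Of the 65, 49 were above 0, beside 700 of the 1015 other receptors and 10062 of all 19572 probe sets. A lean above 0 was thus shared by receptors of other chromosomes. The median varied with an SD of 0.28 between pools, and it was 0.01 with arrays centred on the receptor median. Olfr769 (chr10:129111485-129112423, MOR114) had the smallest p. It had 5.64, 6.04, 4.73 and 5.85 in citrus GFP+ cells, against 7.25, 6.84, 6.60 and 7.45 in vehicle GFP+ cells. The arrays did not overlap and all 8 were under background, so no fold is given for the difference of −1.47 ± 0.31 (unadjusted p = 0.00018 and adjusted p = 0.392, limma). Olfr769 had 9.60, 9.74, 8.90 and 9.01 in citrus GFP- cells and 9.78, 9.62, 8.94 and 8.65 in vehicle GFP- cells, a difference of 0.06.

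Olfr801 was above background on all 8 GFP+ arrays. Its citrus GFP+ values, given with the gates, were all above its vehicle GFP+ values, by 1.21 ± 0.43 on average (unadjusted p = 0.012 and adjusted p = 0.999, limma). Olfr803 (MOR111) had 10.23, 9.06, 9.52 and 9.54 in citrus GFP+ cells, all above background, against 8.64, 8.99, 8.12 and 8.38 in vehicle GFP+ cells, all under it. Background was 8.75 to 9.27 on citrus GFP+ arrays and 8.90 to 9.71 on vehicle GFP+ arrays, so this contrast with background follows in part from the cut. Olfr803 had a difference of 1.06 ± 0.38 (0.0133 and 0.999). Olfr1352 had 0.59 ± 0.25 (0.0282 and 0.999), without overlap but under background throughout. Olfr804, the next by p, had 0.58 ± 0.27 (0.0507).

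In GFP- cells citrus against vehicle also gave 0 of 65 past the threshold by limma, beside 0.0153% of all probe sets (0.0102% higher, 0.00511% lower), and 5 at an unadjusted p under 0.05, all higher in citrus (median 0.16, beside 0.04 for the other receptors). That is 7.69% of the members, beside 4.73% of the other receptors and 5.88% of all probe sets. They were Olfr1356 (0.82 ± 0.31), Olfr780 (0.56 ± 0.22), Olfr772 (0.75 ± 0.29), Olfr773 (0.71 ± 0.30) and Olfr1352 (0.56 ± 0.25), with a smallest adjusted p of 0.824. For Olfr1356 the citrus GFP- values (8.16 to 9.35) were above the vehicle GFP- values (6.98 to 8.13). Olfr772 and Olfr773 are neighbours of family MOR114, and the citrus and vehicle arrays of Olfr772, Olfr773, Olfr780 and Olfr1352 overlapped in GFP- cells.

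The third comparison asked whether citrus changed the enrichment in GFP+ cells, that is the gate difference in citrus minus that in vehicle. By limma 0 of 65 passed, beside 0.0% of all probe sets, with 1 at an unadjusted p under 0.05 (1.54%, beside 3.69% of all probe sets) and a smallest adjusted p of 0.999. The median was 0.07, beside 0.13 for the other receptors. Olfr769 had gate differences in citrus pools of −3.96, −3.70, −4.18 and −3.16, against −2.53, −2.78, −2.35 and −1.20 in vehicle pools. The pools did not overlap, and the effect was −1.53 ± 0.44 (95% interval −2.46 to −0.61, limma unadjusted p = 0.00266 and adjusted p = 0.999). Olfr769 was under background on all GFP+ arrays and above it on only 2 of 4 vehicle GFP- arrays, so the size of this effect is uncertain. It was named for the smallest p, so the lack of overlap follows in part from that choice.

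The next receptors by p ran in both directions. Olfr1356 had 1.91, 3.01, 2.16 and 2.22 in citrus pools, against 3.91, 2.63, 3.47 and 2.97 in vehicle pools (−0.92 ± 0.44). Olfr777 had −1.16, −1.53, −0.57 and −0.36 in citrus, against −2.07, −2.25, −2.62 and −0.65 in vehicle (0.99 ± 0.55). Olfr801 had 2.60, 1.37, 2.61 and 3.08 in citrus, against 0.98, 0.74, 2.15 and 1.71 in vehicle (1.02 ± 0.61). The pools overlapped for these 3, and Olfr815 had −1.21 ± 0.81. The intervals of single receptors were wide: that of Olfr788, measured above background throughout, ran from −0.86 to 0.89 around 0.02.

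**Figure D5:**
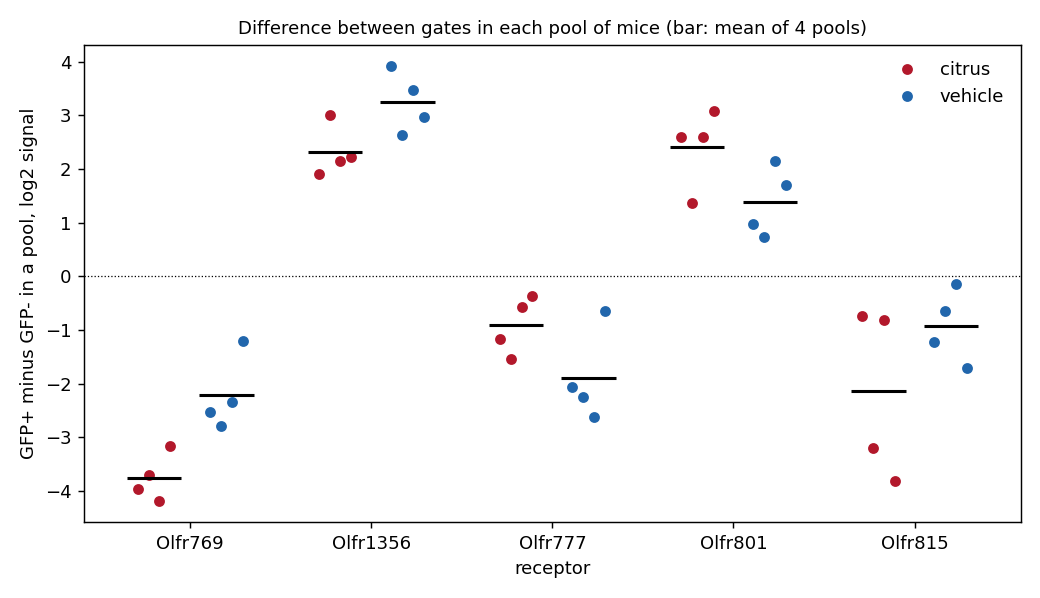
Gate difference in log2 signal within each pool of 3 mice (points, bar at the mean of 4) for the 5 receptors with the smallest p for the citrus effect on enrichment, citrus left of vehicle. The 4 citrus pools of Olfr769 lie between −4.18 and −3.16, below all 4 vehicle pools, and for the other 4 receptors the pools overlap. The GFP+ arrays of Olfr769 were all under background.

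Genes that act in receptor expression and signalling were counted beside the receptors. Of 23 genes for receptor choice, feedback and trafficking, 2 were higher and 2 lower in GFP+ cells in citrus, and 1 and 3 in vehicle. Those 17.4% called are near the 18.2% and 19.0% of all probe sets, so the list did not stand apart by its count. Rtp2, a transporter that carries receptors to the membrane, was higher by 0.55 ± 0.17 in citrus and 0.75 ± 0.17 in vehicle, and Lbr, an inner nuclear membrane protein whose loss from OSNs lets receptor genes aggregate, was lower by −1.90 ± 0.29 and −1.63 ± 0.29. Lhx2 (0.02 and −0.17) and Ebf1 (0.24 and 0.03), transcription factors at receptor genes, did not pass. Of 13 measured transduction genes, 4 were higher and 1 lower in citrus and 3 and 1 in vehicle (38.5% and 30.8%), with Pde1c, a phosphodiesterase of cilia, higher by 0.95 ± 0.16 in both.

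The gates also differed in other cells. All 14 measured myeloid and lymphoid markers were lower in GFP+ cells in either stimulus, with a summed level per array, as the mean of their log2 signals, of 5.38 to 5.77 in citrus GFP+ against 10.8 to 12.5 in citrus GFP- arrays, and 5.15 to 5.97 in vehicle GFP+ against 11.4 to 12.4 in vehicle GFP- arrays. Of these 14, 13 were under background on all citrus GFP+ arrays and 11 on all vehicle GFP+ arrays. Ptprc, the common leukocyte antigen, had means of 5.30 ± 0.37 in citrus GFP+ and 11.3 ± 0.86 in citrus GFP- cells. Of 12 immature OSN markers 7 were lower in each stimulus (10.6 to 10.9 in citrus GFP+ against 11.8 to 12.1 in citrus GFP- arrays), led by Gng8 (−4.57 and −4.04). All 7 microvillous markers, 5 of 7 markers of dividing and basal cells and both erythroid markers were lower too, and of 9 sustentacular markers 3 in citrus and 2 in vehicle. Mature OSN markers were higher in 5 of 15 in citrus and in 4 of 15 in vehicle. These markers moved with the same gate as the receptors, and their part in the receptor differences was not tested. In the tests of citrus against vehicle 0 genes of these lists passed by limma in either gate, and between 0 and 2 per cell type list had an unadjusted p under 0.05.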

How the data were processed

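The authors deposited 1 table of log2 expression signals. Per the submitters' processing notes Affymetrix Expression Console was used, and 1 label names a gene-level SST-RMA signal. That method transforms signal space and may widen differences, so log2 differences are not read as ratios of mRNA amount. For that step, version and genome build were not given in the sources used here. Values were used as deposited, and 0 columns of other samples were present. The 28846 rows held 6640 control probe sets and 2634 without a symbol, and the other 19572 were tested. Gene positions and sequences are from RefSeq (GRCm38.p6).

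Tests used limma 3.58.1 and R 4.3.3 (lmFit and eBayes, 1 mean per group over 16 arrays, two-sided), adjusted by Benjamini-Hochberg over all 19572 probe sets with a threshold of 0.05. The pipeline was tested on simulated data with independent noise on each array, which held no pool effect. Arrays give no read depth, and their number limits the precision. P-values measure the spread between arrays within groups, which come from different pools of mice. The main fit did not pair the gates of a pool. Arrays of both gates with one number were taken as one pool because 3 mice per pool and 24 in all give 8 pools. This reading is inferred from the labels. Their deviations from group means correlated at 0.075 to 0.275, over 0.1 in 6 of 8 pairs, so the values alone do not show it. Numbers shared by citrus and vehicle belong to different mice and were not used as pairs, although their deviations correlated about as highly (−0.013 to 0.354, over 0.1 in 6 of 8 pairs). Figures used matplotlib 3.10.9 in Python 3.11.15.

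Members and gene lists were chosen with earlier results of these data known. Named were, per gate comparison, the 6 receptors with the largest difference past the threshold in each direction, the 5 with the smallest p for the citrus comparisons, the 5 with the highest mean signal, and S100a5 and Omp. Other members were named after their values were seen, to fill out counts, families and pairs. Pairs by protein identity were planned but no protein table was used here, so the first 50 coding bases stood in for them, a choice made after values were seen. Of each gene list a few members were named.

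Alternatives were other centrings of the arrays, a filter on dim probe sets, a fit of the compared groups alone, a fold threshold beside the adjusted p, all non-control probe sets, array weights, a trended and robust prior, the pool or replicate number as a block, and leaving out each pool in turn.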

Additional observations from a re-analysis of the deposited data

Results flagged for a closer look

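Of 28 named receptors, each in 4 groups of 4 arrays, 7 values of 112 groups stood far from the other arrays of their group by Dixon's ratio, where chance gives about 1 in 20 groups. Olfr809 was high in vehicle GFP+ replicate 3 (8.16, the others 4.04 to 4.51) and low in citrus GFP- replicate 2 (8.71, the others 9.29 to 9.39). Olfr1354 was low in citrus GFP+ replicate 2 (4.92, the others 5.77 to 5.86) and in vehicle GFP+ replicate 3 (3.50, the others 5.41 to 5.57). Olfr773 was low in citrus GFP- replicate 4 (8.02, the others 8.96 to 9.11) and high in vehicle GFP+ replicate 3 (7.61, the others 7.36 to 7.40). Olfr1356 was high in citrus GFP- replicate 1 (9.35, the others 8.16 to 8.35). Of the 7, 3 were in vehicle GFP+ replicate 3. The value of Olfr1356 was above the background of its array and the other 6 were under theirs.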

How the results depend on the processing

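Over 20 alternatives, 147 of 154 recomputed counts and medians stayed within 1.5 times the reported count or 1 SD between pools of the reported median (0.28 to 0.36), and 7 did not. The medians of −0.13 (gate in citrus), 0.26 and 0.16 (citrus against vehicle in GFP+ and GFP- cells) and 0.07 (enrichment) were smaller than their SD between pools. A turn in sign can therefore count as within it, and the counts of 0 could not fall, so this tally is a weak measure of stability. No median was itself tested, and 3 medians turned in sign under some alternative. With only probe sets above background on average tested, which keeps 19 of the 65 receptors, 6 were called in either stimulus (5 higher, 1 lower). Without the filter 33 were called in citrus and 32 in vehicle. The filtered median was 0.28 in citrus and 0.27 in vehicle, both turned in sign. The filter drops receptors bright in GFP- cells alone, so these values follow in part from it. Centred on all probe sets the citrus median turned to 0.20, and centred on the receptor median that of the citrus effect on enrichment turned to −0.21, against 0.07. Without citrus replicate 3 that enrichment median was −0.04. The median with arrays centred on the receptor median was −0.88 in citrus and −0.83 in vehicle, and centred on mature OSN markers −0.50 in citrus. These centrings shift every receptor alike. Without 1 pool at a time the gate count ranged from 22 to 32 in citrus and from 25 to 34 in vehicle, and its median from −0.36 to −0.03 and from −0.54 to −0.15. Of 24 named gate differences 21 kept their call in every alternative that tested them. The others are given with Olfr57 and Olfr763. With the pool as a fixed replicate block 37 receptors were called in citrus and 35 in vehicle, and as a random block 36 and 33. Besides the blocked values given with single receptors, the block put Olfr773 (0.0173), Olfr784 (0.0446) and Olfr786 (0.0406) past the threshold in citrus, and Olfr773 (0.0497) and Olfr781 (0.0296) in vehicle. Citrus against vehicle stayed at 0 with the replicate number as a fixed block. Over all 65, 21 calls of 33 in citrus and 22 of 32 in vehicle held in every alternative that tested them. Background limits the size of each difference with a group under it.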

Other observations

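The third GFP+ array stood above the other 3 of its group by at least 1 log2 unit in both stimuli for 9 of the 65 receptors (13.8%), namely Olfr1357, Olfr807, Olfr809, Olfr810, Olfr816, Olfr819, Olfr247, Olfr822 and Olfr826. Of receptors on other chromosomes 57 of 1015 (5.62%) did so, and of all probe sets 87 of 19572 (0.445%). For replicates 1, 2 and 4 the number of chromosome 10 receptors was 0, and for GFP- arrays it was 0 for all 4 replicates. Olfr816 had 6.27, 4.82, 9.87 and 7.24 in citrus GFP+ cells and 4.30, 6.43, 10.02 and 4.73 in vehicle GFP+ cells. Olfr819 had 9.06, 9.63, 11.24 and 9.01 in citrus GFP+ cells and 9.27, 9.47, 10.83 and 8.63 in vehicle GFP+ cells. Citrus and vehicle replicate 3 are separate mice by the labels. The direction was not shared by all members, since Olfr1354 had its lowest vehicle GFP+ value on that array. Without replicate 3 of the stimulus, Olfr816 was lower in GFP+ cells by −3.46 in citrus (adjusted p = 0.0364 by limma, against 0.069 with it) and Olfr247 by −1.72 in vehicle (0.0456, against 0.104). Olfr810 and Olfr819 did not pass either way. The 9 receptors were picked for this pattern, so it is a description. Leaving out an array picked as the highest lowers the GFP+ mean by construction, so the adjusted p without replicate 3 is not a test.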
